A study of Mus musculus with 3 samples.

Results

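A set of 10 genes of the exocrine pancreas was followed in mouse liver RNA: Cpa1, Cpb1, Pnliprp2, Cel, Clps, Pla2g1b, Reg2, Rnase1, Gp2 and Amy2a5. They are products of pancreatic acinar cells other than serine proteases. The 10 genes were selected from a list of symbols with their ratios on these arrays already known, so their values are given as a description, with no test. All probes whose single symbol in the platform annotation was one of the 10 entered, which gave 28 probes among 16273, and 10 of 7984 named genes.

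Acinar cells fill the exocrine pancreas, store digestive enzymes in zymogen granules and release them into the gut. Their products break down fat, protein, starch and nucleic acids, and some are made as inactive precursors that trypsin activates. The genes are switched on by a factor complex, PTF1, that reads an E-box beside a TC-box. Hepatocytes, the main cells of liver, secrete plasma proteins and bile in place of these enzymes.

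The study set purchased liver total RNA, labelled with Cy5, against Universal Mouse Reference RNA (UMRR), labelled with Cy3. UMRR is a commercial mixture of RNA from mouse cell lines. All 3 arrays carried cRNA made by a single round of amplification from this 1 pair of purchased RNAs, with the same dye orientation. They are repeat arrays of 1 liver RNA against 1 reference. Every SD and p-value below thus rests on the spread between arrays, not between animals, and n = 3 counts arrays. Whether the cRNA was prepared anew for each array is not stated. Strain, age, sex and the number of livers pooled are not stated in the labels. Without a dye swap, bias between the dyes does not cancel in these ratios.

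An exact 0 was listed for 32.2%, 23.5% and 29.6% of the values on arrays 1, 2 and 3. Such a value was taken as missing, not as a ratio of 1. Complete values over the 3 arrays were held by 60.9% of all probes and by 25 of the 28 member probes (89.3%). Of the other members' probes, a pair for Pla2g1b stood at exact 0 on every array and 1 probe of Cpb1 stood at exact 0 on array 3. Across 5520 genes measured on every array, arrays 2 and 3 were closer to each other (SD of the difference 0.21) than array 1 was to them (0.43 and 0.38). Values are log ratios read as base 2, with a positive value meaning higher in liver. The direction rests on 4 hepatocyte secretory genes measured on every array (Apoc3, Vtn, Rbp4 and Ambp), whose means lay between 4.01 and 5.17. The hepatocyte genes Ttr, Apoh and Fgb lacked a ratio on at least 1 array. A ratio compares the RNAs for 1 gene, so the order of genes by ratio is not an order of their transcript levels.

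Upstream sequences are shown for the gene with the highest mean ratio (Reg2), for both carboxypeptidases (Cpa1 and Cpb1) and for the 2 genes that stayed near a ratio of 1 (Cel and Amy2a5). They are the 250 bases before the RefSeq transcript start in GRCm38.p6, read in the direction of the gene. The regions are chr6:78404905-78405154 (plus strand) for Reg2, chr6:30638968-30639217 (plus) for Cpa1, chr3:20275734-20275983 (minus) for Cpb1, chr2:28563404-28563653 (minus) for Cel and chr3:113258700-113258949 (minus) for Amy2a5. Capitals mark the E-box letters CACCTG or CAGCTG and the TC-box letters TTTCCC, on either strand.
Reg2: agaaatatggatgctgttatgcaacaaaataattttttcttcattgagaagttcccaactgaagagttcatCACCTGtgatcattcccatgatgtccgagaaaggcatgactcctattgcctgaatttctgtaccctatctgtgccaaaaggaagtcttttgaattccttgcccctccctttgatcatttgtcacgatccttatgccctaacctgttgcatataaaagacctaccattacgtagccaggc
Cpa1: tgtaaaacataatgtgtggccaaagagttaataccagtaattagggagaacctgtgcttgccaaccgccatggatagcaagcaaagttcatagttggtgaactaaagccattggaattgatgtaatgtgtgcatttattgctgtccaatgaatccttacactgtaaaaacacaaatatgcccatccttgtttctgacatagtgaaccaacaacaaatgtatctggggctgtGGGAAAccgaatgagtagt
Cpb1: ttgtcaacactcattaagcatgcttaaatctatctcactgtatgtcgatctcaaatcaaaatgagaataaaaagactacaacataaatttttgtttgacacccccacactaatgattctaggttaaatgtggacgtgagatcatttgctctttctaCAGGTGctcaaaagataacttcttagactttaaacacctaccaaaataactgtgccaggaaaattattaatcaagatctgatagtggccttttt
Cel: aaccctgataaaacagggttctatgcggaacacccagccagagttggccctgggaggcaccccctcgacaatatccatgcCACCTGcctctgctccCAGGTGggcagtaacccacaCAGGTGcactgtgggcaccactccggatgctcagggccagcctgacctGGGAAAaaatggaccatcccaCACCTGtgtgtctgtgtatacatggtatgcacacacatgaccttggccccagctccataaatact
Amy2a5: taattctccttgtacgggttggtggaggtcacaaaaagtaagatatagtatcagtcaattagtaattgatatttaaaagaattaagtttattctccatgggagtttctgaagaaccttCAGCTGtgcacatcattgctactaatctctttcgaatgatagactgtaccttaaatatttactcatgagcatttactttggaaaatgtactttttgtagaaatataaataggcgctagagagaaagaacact

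The near-0 gene Cel held more of these letters than any other of the 9 members with an upstream sequence, with 4 matches to CACCTG and 1 to TTTCCC. Cel was also the single member with both an E-box and a TC-box anywhere in its window, on either strand. Both were found in 5.91% of 32851 upstream windows of the same length. Spacing and orientation were not part of this count, so it is not a search for the site of PTF1. CACCTG stood in 4 of 9 member windows (Cel, Cpb1, Reg2 and Pnliprp2) against 17.2% of all windows. CAGCTG stood in 1 of 9 (Amy2a5) against 13.0%, and TTTCCC in 2 of 9 (Cel and Cpa1) against 21.9%. The TATA box letters TATAAA, read on the strand of the gene, stood in 3 of 9 (Reg2, Gp2 and Amy2a5) against 7.59%. Among 25 upstream windows of other acinar products, 14 held CACCTG, 5 CAGCTG, 10 TTTCCC, 10 TATAAA and 8 both an E-box and a TC-box at any spacing. These windows came from the whole list of products, on the array or not, and a gene can have more than 1 window. The members with a high ratio thus did not share 1 of these motifs in this window, and a match is a description of letters, not of a bound site.

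Of the 10 genes, 8 were at least 2-fold higher in liver than in UMRR on every array. Over all 5520 genes, 9.46% met that count, and since the members were chosen on this contrast nothing is read from the difference. The 8 had means between 2.38 for Pla2g1b and 5.55 for Reg2. Amy2a5 and Cel were measured on every array and stayed below 2-fold on each of them. The median over the 10 members was 4.16, beside -0.028 over all genes. In a bulk RNA, the number of cells of a type and the RNA per cell cannot be told apart.

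**Figure D1:**
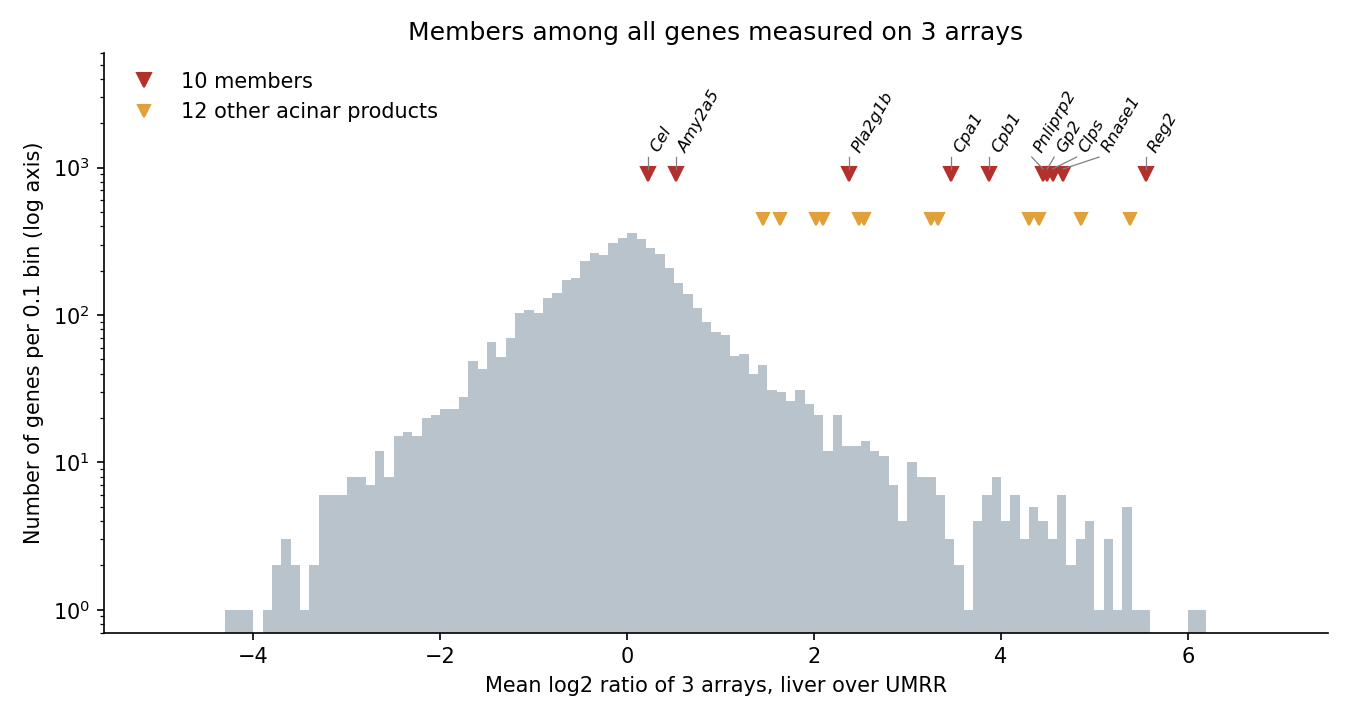
Histogram of the mean log2 ratio, liver over UMRR, of 5520 genes measured on all 3 arrays, with the number of genes per bin on a log axis. Red marks show the 10 members, of which 8 lie between 2.38 and 5.55 and Cel and Amy2a5 lie at 0.22 and 0.53; yellow marks show 12 other acinar products, between 1.45 and 5.38.

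The carboxypeptidases remove single amino acids from the end of a peptide. Cpa1, which prefers aromatic and aliphatic residues, stood at 3.22, 3.66 and 3.52 on arrays 1, 2 and 3 on its 1 probe (16141). All 3 values were high, lowest on array 1, with a mean of 3.47 ± 0.23 (SD, n = 3 arrays), or 11.1-fold higher in liver. Cpb1, which prefers lysine and arginine, had 2 probes. Probe 16446 stood at 3.55, 4.13 and 3.94, a mean of 3.87 ± 0.30 (SD, n = 3) or 14.7-fold. Probe 16430 stood at 5.61 on array 1 and 5.93 on array 2, on each the highest member probe of that array, and at exact 0 on array 3.

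Because that probe lacked a ratio on array 3, the mean of Cpb1 rests on the lower of its probes. With both probes, over arrays 1 and 2, the mean was 4.81, and with probes measured on at least 2 arrays it was 4.52. On the shared probe set Cpb1 exceeded Cpa1 on all 3 arrays, by 0.33, 0.47 and 0.42, although the ranges of the genes over the arrays overlapped.

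Fat-digesting genes fell into high and near-0 members. Clps encodes colipase, the cofactor that holds pancreatic lipase on bile-coated fat droplets, and was measured by 8 probes, all on every array. As the mean of its probes it stood at 4.29, 4.76 and 4.61, a mean of 4.55 ± 0.24 (SD, n = 3) or 23.5-fold. Each probe of Clps was high on each array, from 3.61 (probe 18023, array 1) to 5.36 (probe 887, array 2). Pnliprp2, a relative of pancreatic lipase that also acts on galactolipids, stood at 4.22, 4.79 and 4.35 on probe 2406, with a mean of 4.45 ± 0.30 or 21.9-fold. Its values overlapped those of Clps.

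Pla2g1b, the pancreatic phospholipase A2 that trypsin activates, was the lowest of the 8 high members. Its 8 measured probes gave 2.24, 2.50 and 2.40 as means on the 3 arrays, or 2.38 ± 0.13 (SD, n = 3) and 5.20-fold overall. The other 7 had means between 2.31 and 2.68, and probe 16375 stood apart at 1.02, 1.19 and 0.97. The median probe in place of the mean gave 2.51, and the 2 probes at exact 0 on every array (11848 and 18088) would lower the gene to 1.90 if counted as ratios of 1.

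Cel, the lipase that bile salts activate and that also cleaves cholesterol esters, did not follow Clps and Pnliprp2. Its 1 probe (8485) stood at 0.29, 0.24 and 0.13, a mean of 0.22 ± 0.079 (SD, n = 3) or 1.16-fold. All 3 values lay just above 0 and below every value of the 8 high members. The value of Cel rests on this 1 probe, read without a spot intensity. Whether another probe of Cel would give the same ratio was not tested. Among members with several probes measured on every array, probe means ranged over 1.62 for Pla2g1b, 1.10 for Clps and 0.020 for Rnase1.

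**Figure D2:**
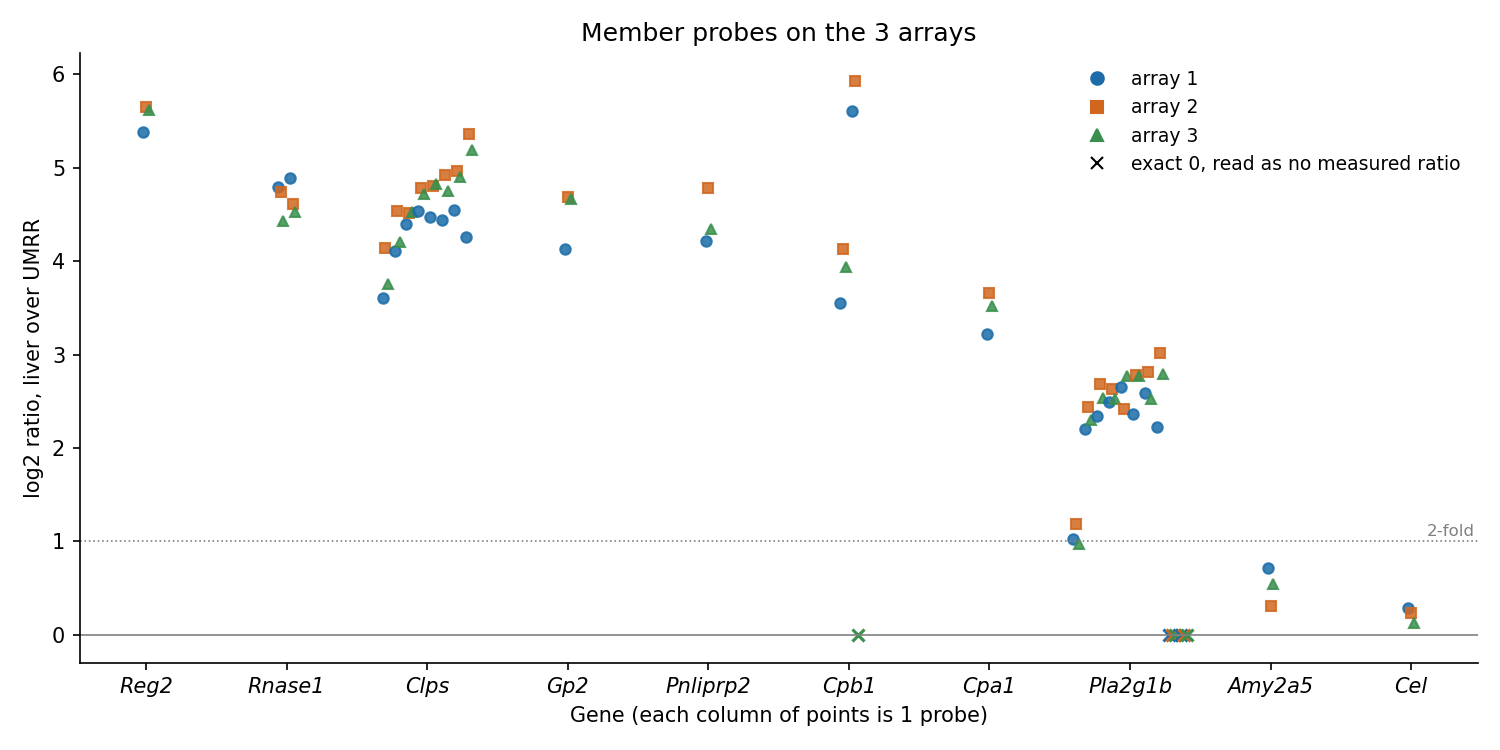
Log2 ratio, liver over UMRR, of the 28 member probes on the 3 arrays, with genes in order of their mean and each probe as its own column of points; crosses at 0 mark exact zeros, read as no measured ratio. The 8 probes of Clps lie between 3.61 and 5.36, 1 probe of Pla2g1b lies near 1 below its other measured probes, and the upper probe of Cpb1 has a cross on array 3.

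Rnase1 encodes pancreatic ribonuclease, which cleaves RNA in the gut. Its 2 probes had means of 4.66 and 4.68. The gene stood at 4.84, 4.68 and 4.48, a mean of 4.67 ± 0.18 (SD, n = 3) or 25.4-fold, and was highest on array 1. Amy2a5, a pancreatic alpha-amylase that cleaves starch, stood at 0.72, 0.31 and 0.55 on its 1 probe (11662). Its mean of 0.53 ± 0.20 (1.44-fold) was above that of Cel on each array, by 0.43, 0.073 and 0.42. Mouse has near-identical copies of amylase genes, so a probe of Amy2a5 can take up RNA of its relatives and its value is uncertain.

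Reg2, a secreted protein of the regenerating family with a C-type lectin fold, had the highest mean ratio of the members over probes measured on every array, although probe 16430 of Cpb1 was above it on arrays 1 and 2. Probe 11741 stood at 5.39, 5.65 and 5.61, a mean of 5.55 ± 0.14 (SD, n = 3) or 46.9-fold, which was rank 3 of 5520 genes. The values of Reg2 lay above all values of the next member, Rnase1. Gp2, the main glycoprotein of the zymogen granule membrane, stood at 4.13, 4.69 and 4.67 on probe 13351. Array 1 was the low one there, and the mean was 4.50 ± 0.32 or 22.6-fold.

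In the order of mean ratio the members ran Reg2, Rnase1, Clps, Gp2, Pnliprp2, Cpb1, Cpa1, Pla2g1b, Amy2a5 and Cel. The values of Rnase1, Clps, Gp2 and Pnliprp2 overlapped from each to the next, and which of such a pair was higher changed with the array. Steps without overlap lay between Reg2 and Rnase1 (0.88 ± 0.31, SD of the difference over 3 arrays) and between Pnliprp2 and Cpb1 (0.58 ± 0.15). Larger ones followed between Cpa1 and Pla2g1b (1.09 ± 0.098) and between Pla2g1b and Amy2a5 (1.85 ± 0.33). The last step without overlap, between Amy2a5 and Cel, was 0.31 ± 0.20. These SDs hold the spread between arrays and not between probes, and 6 of the 10 genes had 1 probe on the array. Among probes measured on every array, probe means within a gene ranged over 1.10 for Clps (8 probes), 1.62 for Pla2g1b (8) and 0.020 for Rnase1 (2). The median of such ranges was 0.34 over 1328 genes with several probes. Cpb1 is not among these ranges. Its probe 16430 stood at 5.61 and 5.93 on arrays 1 and 2, where probe 16446 stood at 3.55 and 4.13. The step between Pnliprp2 and Cpb1 used probe 16446 alone; over arrays 1 and 2, with both probes, Cpb1 at 4.81 came second in the order, above Rnase1 (4.76), Clps (4.53), Pnliprp2 (4.50) and Gp2 (4.41).

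Most members were lowest on array 1. Of the 10 genes, 7 had their lowest value there and 7 had their highest on array 2, with medians over the members of 3.84, 4.41 and 4.14 on arrays 1, 2 and 3. Rnase1, Amy2a5 and Cel went the other way and were highest on array 1. Among 164 other genes with a mean at least as high as that of Pla2g1b, 107 (65.2%) were lowest on array 1, as were 40.6% of all 5520 genes. The median gain of the 164 genes from array 1 to array 2 was 0.33, beside 0.36 for the members. With array 1 left out, 8 of 10 members were again at least 2-fold higher on both arrays, beside 10.5% of all genes in that setting.

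**Figure D3:**
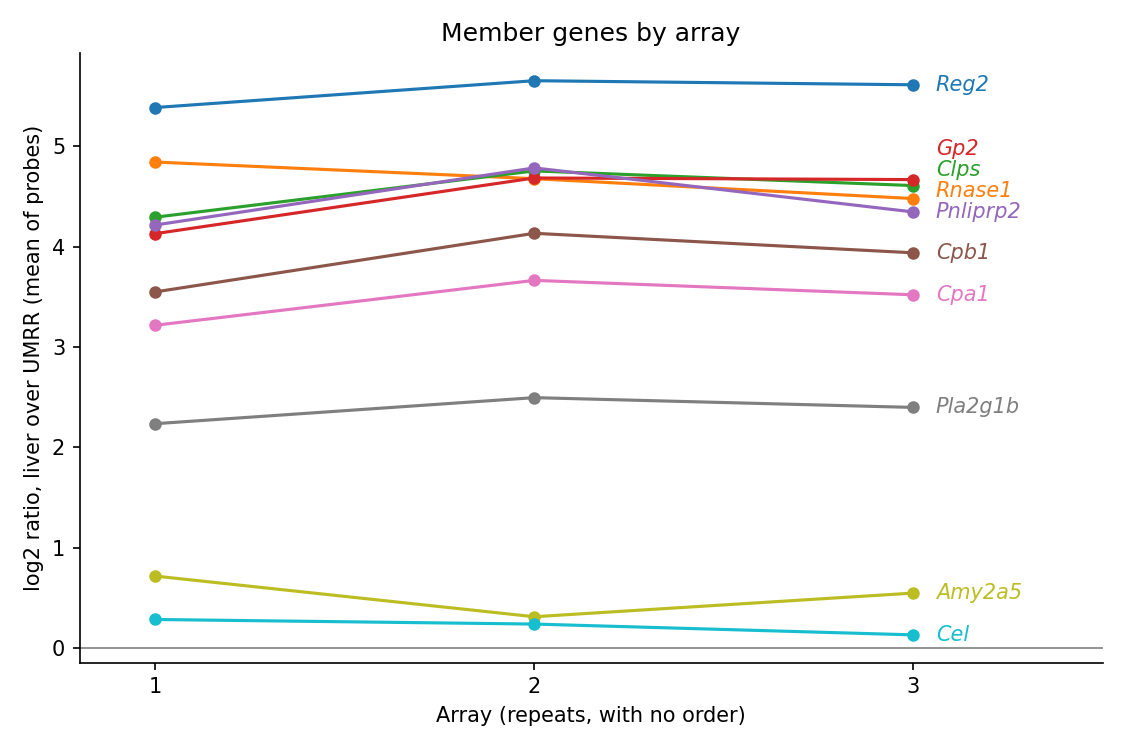
Log2 ratio, liver over UMRR, of each member gene (mean of its probes measured on every array) on the 3 arrays, which are repeats with no order; a line joins the values of 1 gene. The lines of 7 genes are lowest on array 1, while Rnase1, Amy2a5 and Cel are highest there, and Pla2g1b lies between the high members and the 2 near 0.

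The genes outside the members whose 3 values lay nearest to the median profile of the members were Aspa, Dgat2, Rbp4, 2810459M11Rik and Ambp. Nearness was the Euclidean distance over the 3 arrays, from 0.11 for Aspa to 0.25 for Ambp. Aspa, a deacetylase of N-acetylaspartate, stood at 3.93, 4.46 and 4.15. Dgat2, which makes triglyceride, stood at 3.73, 4.39 and 4.11. Rbp4 and Ambp are plasma proteins of the hepatocyte list. With 3 arrays of 1 RNA pair, this measure finds genes of a similar ratio and no more.

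Other secreted products of acinar cells were compared next. In the limma fit across 5520 genes with Benjamini-Hochberg adjustment, 30.1% of all genes were higher in liver and 33.9% lower. Of 30 listed products 13 were on the array, and all 12 with a ratio on every array were higher in liver, each at least 2-fold on every array, with a median of 2.89. Cuzd1, a zymogen granule protein, was at exact 0 on every array. The 4 highest were the serine proteases Try4 (5.38 ± 0.26, SD, n = 3), Ctrb1 (4.86 ± 0.29), Ctrl (4.41 ± 0.29) and Cela3b (4.30 ± 0.37), with adjusted p-values in the limma fit between 2.16e-06 and 5.30e-06. Try4 lost its call with exact zeros counted as ratios of 1 (4.43, adjusted p = 0.0524, against 5.66e-07 at the lowest of 9 alternatives). Earlier results on some of these genes were known when the list was written, so nothing is read from the count of 12. Probes of trypsin and elastase families can take up RNA of relatives.

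The relatives of Reg2, named after their values were seen, were higher too but by less than Reg2. Reg3a stood at 2.50, 2.72 and 2.39, Reg3d at 2.00, 2.22 and 2.06, and Reg3g at 2.02, 2.06 and 1.97. Each of these values was more than 2 log2 units below the lowest value of Reg2 (5.39). Their adjusted p-values in the limma fit were 8.06e-06, 1.13e-05 and 1.04e-05.

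Regulators and secretory machinery of acinar cells did not share the size of the ratios of the secreted products. Of 22 listed genes 10 were on the array and 8 were measured on every array, with a median of 0.11. In the limma fit 4 were higher, 3 lower and 1 did not pass, beside 30.1% higher and 33.9% lower over all genes. The 4 higher ones were Erp27, a chaperone of the endoplasmic reticulum (1.09 ± 0.12, SD, n = 3), Xbp1, a factor of the secretory stress response (0.43 ± 0.13), Ptf1a, the defining subunit of PTF1 (0.42 ± 0.12), and Snap23, a membrane fusion protein (0.37 ± 0.080). Ptf1a stood at 0.35, 0.55 and 0.35, so it was near the ratio of Amy2a5 and far below those of the 8 high members. Its call in the limma fit (adjusted p = 0.0102) was lost without array 2 (0.0919) and without array 3 (0.0651), with a lowest value of 0.00484 over 9 alternatives.

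Snap23 lost its call without array 2 (0.101) and without array 3 (0.0772; lowest 0.00941), and Xbp1 without array 3 (0.120; lowest 0.00370), all in limma fits, so that 2 of the 8 genes were higher without array 2 and 1 without array 3. Lower in liver were Gata6, a transcription factor (-3.20 ± 0.25, SD, n = 3), Rab3d, a GTPase of secretory granules (-0.61 ± 0.12), and Gatm, which makes a creatine precursor (-0.58 ± 0.028). Vamp8, a granule fusion protein, stood at -0.16 ± 0.23 as a mean of probes that lay on both sides of 0, and its median probe was called lower (-1.10, adjusted p = 9.37e-05 in the limma fit, against 0.813 at the highest of 9 alternatives). Bhlha15, a transcription factor of mature acinar cells, and Rab27b, another granule GTPase, were at exact 0 on every array.

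Enzymes of the same families made outside the acinar cell gave mixed ratios. Among other carboxypeptidases, 3 of 4 measured genes were higher and 1 lower in the limma fit, with a median of 0.31. Over all genes 30.1% were higher and 33.9% lower in that fit, and the counts of the families below stand beside the same shares. Cpq, which cleaves small peptides (1.28 ± 0.081, SD, n = 3), was the highest and Cpe, which trims hormone precursors (-1.90 ± 0.14), the lowest. Cpm (0.32 ± 0.10) lost its call without array 2 (adjusted p = 0.171 in the limma fit) and with exact zeros kept (0.0973). Cpxm2 (0.31 ± 0.065) lost it without array 2 (adjusted p = 0.154 in the limma fit) and without array 3 (0.207). The lowest adjusted p-values over 9 alternatives were 0.00658 for Cpm and 0.00909 for Cpxm2. Cpq lost its call with exact zeros kept (0.52, adjusted p = 0.0672, lowest 3.37e-05).

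Among other lipases and esterases, 3 of 5 measured genes were higher and 1 lower, with a median of 0.65. Lipg, endothelial lipase, stood at 2.07 ± 0.22 (SD, n = 3). Lipf, gastric lipase, stood at 0.66 ± 0.10 over 38 probes. Ces5a (0.65 ± 0.65) lost its call under 5 of 9 alternatives, among them without array 2 (0.203) and without array 3 (0.0925), with adjusted p-values between 0.00640 and 0.284 in the limma fits. Lipe, hormone-sensitive lipase (-0.73 ± 0.36), lost its call with exact zeros kept (adjusted p = 0.0996, lowest 0.00322).

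Among other phospholipases A2, Pla2g12b was higher, at 3.74, 4.69 and 4.19, above every value of Pla2g1b. Pla2g12a was higher too (0.74 ± 0.13, SD, n = 3), Pla2g7, which degrades platelet-activating factor, was lower (-0.63 ± 0.19), and the median of 4 measured genes was 0.29. Pla2g5 was at exact 0 on every array. The measured ribonuclease beside Rnase1, Rnase6, stood at 0.95 ± 0.23 and was called higher, with Rnaset2a at exact 0. Gp2 has a zona pellucida domain; of others with that domain, Eng, an endothelial receptor, was higher (1.63 ± 0.35) and Tgfbr3 did not pass (-0.25 ± 0.22, adjusted p = 0.102 in the limma fit).

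**Figure D4:**
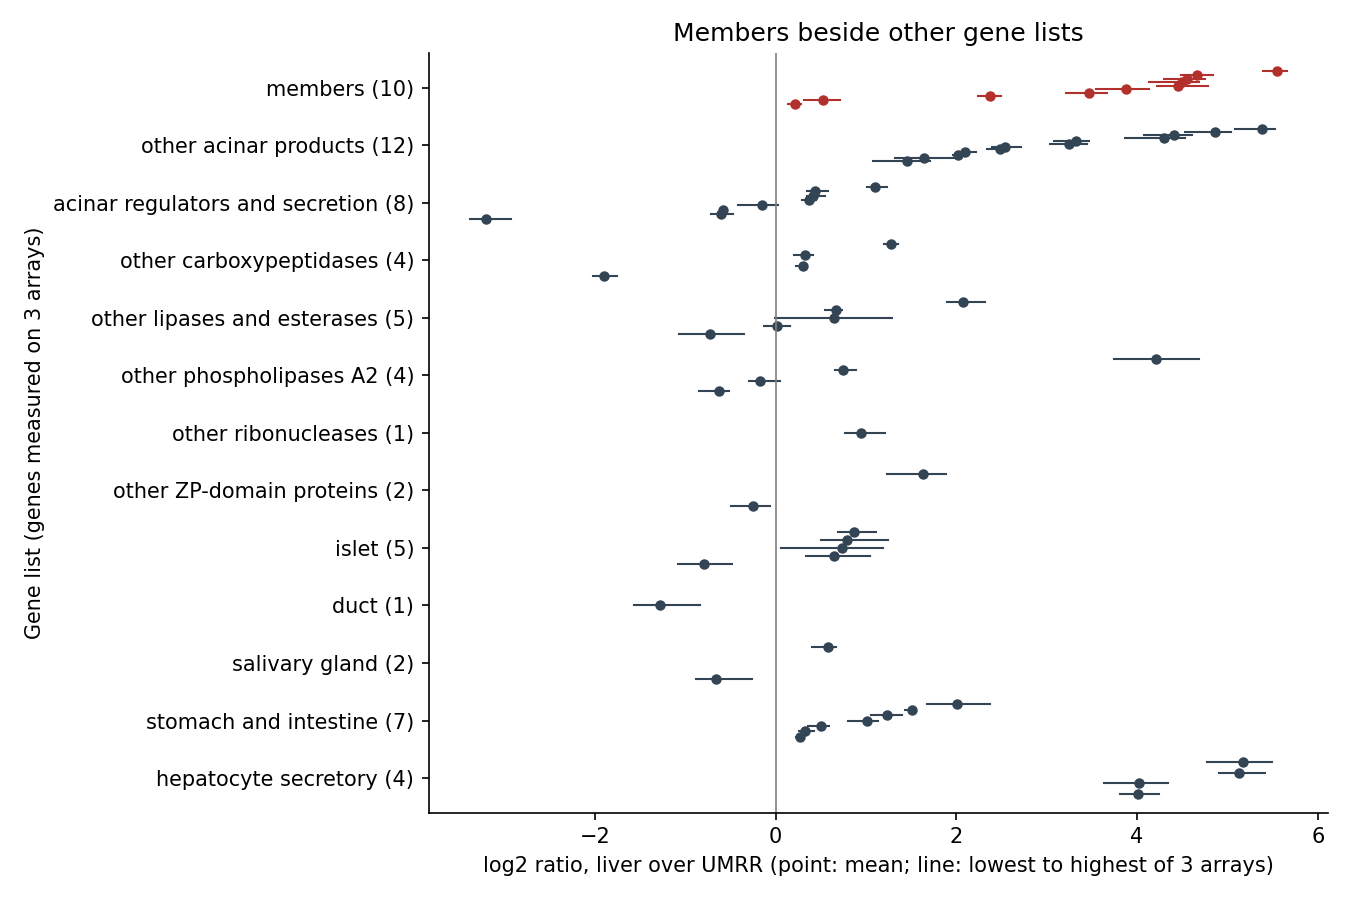
Mean log2 ratio, liver over UMRR, of each gene measured on all 3 arrays in 13 gene lists (points), with lines from the lowest to the highest array; the number of genes stands in brackets. The members and the 12 other acinar products lie to the right of 0, acinar regulators and family relatives lie on both sides, and the 4 hepatocyte genes that set the direction lie above 4.

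Marker genes of other cell types of the pancreas and gut were read beside the members. Of 22 islet genes 5 were measured on every array, 4 higher and 1 lower in the limma fit, with a median of 0.74. The shares over all genes were 30.1% higher and 33.9% lower. Chgb, a granule protein, stood at 0.87 ± 0.22 (SD, n = 3), Gcg, glucagon, at 0.79 ± 0.39, and Ins2, insulin, at 0.055, 1.19 and 0.96. The call of Ins2 (adjusted p = 0.0248) was lost in limma fits without array 2 (0.102), without array 3 (0.0789) and with zeros kept (0.230), with a lowest value of 0.000108. Gcg and Scg5 (-0.79 ± 0.30) lost their calls with zeros kept (0.102 and 0.0666, lowest 0.00120 and 0.000247). Each of the 5 lay below 2-fold on average. The other 4 islet genes on the array had no ratio on at least 1 array. Slc2a2 stood at 2.70 on array 1 alone and Ttr, which hepatocytes also secrete, at 3.98 on array 3 alone. Pdx1 stood at 0.30 on array 1 and -0.16 on array 3, and Scg2 at 0.17 on array 3 alone. They were named after their values were seen.

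Of 2 duct genes on the array, Sox9 was lower (-1.28 ± 0.39, SD, n = 3). Car2, named after its values were seen, had a ratio on array 2 alone, of 1.84. Of the salivary gland list Bpifa2 was higher (0.57 ± 0.15) and Aqp5 lower (-0.66 ± 0.34), and Aqp5 lost its call in the limma fit with zeros kept (adjusted p = 0.169, lowest 0.000158). All 7 stomach and intestine genes measured on every array were higher, beside 30.1% of all genes in the limma fit. Their median was 1.01, and the highest were Gkn2 (2.01 ± 0.35), Tff1 (1.51 ± 0.061), Pgc, a pepsinogen (1.24 ± 0.17), and Tff3 (1.01 ± 0.19). Cdx2, named after its values were seen, went the other way, at -0.26 on array 2 and -0.15 on array 3. It stood at exact 0 on array 1. Gkn2 lost its call with zeros kept (adjusted p = 0.149 in the limma fit, lowest 6.83e-06). Its probes 926 and 14817 then entered with an exact 0 on array 1. On arrays 2 and 3 these probes stood between 2.53 and 3.10. Fabp2 of the intestine was at exact 0 on every array. By array, the median of the stomach and intestine genes was 0.80, 1.13 and 1.11, beside 3.84, 4.41 and 4.14 for the members. Whether RNA of another tissue had a part in the ratios of the members was not tested.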

How the data were processed

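Values came from the deposited table of 16273 probes on 3 arrays. Scanner, background correction, dye normalization, the array's genome build and the rule behind exact zeros: not given in the sources used here. The deposited log2 values are signed ratios of both dyes; base 2 was assumed from their range, and natural logs would multiply them by 1.44. Exact zeros were left out. The number of arrays limits the precision.

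Names came from the platform annotation, in which 12336 probes carried a single symbol, 3876 carried none and 61 carried more. By gene identifier 12228 of the 12336 matched the RefSeq table (GRCm38.p6), used for names. Probes measured on every array (7730 with 1 symbol) were averaged per gene, which gave 5520 genes. Each gene mean was tested against 0 in limma 3.58.1 under R 4.3.3 (lmFit, eBayes, two-sided). p-values were adjusted by Benjamini-Hochberg over all genes and called at 0.05, and the fit was tested on simulated data. The error in these tests is the technical spread between repeat arrays of 1 RNA pair. Members were not tested. Upstream sequences are RefSeq's; 9 of 10 members matched, and Clps did not.

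The members and lists were chosen with earlier results of these data known. By rule, the text names all members, up to 4 called genes of each list by absolute mean, the gene furthest against its list, list genes at exact 0 on every array, and the 5 nearest genes. Xbp1, Ptf1a, Snap23, Vamp8, Reg3a, Reg3d, Reg3g, Slc2a2, Ttr, Pdx1, Scg2, Car2 and Cdx2 were named after their values were seen. Alternatives were leaving out each array, a looser or no filter on zeros, centring, scaling, the median probe, trend and robust eBayes, and natural logs. Ratios of list genes not on the array could not be read. The upstream windows of other acinar products came from the whole list, whether or not the gene was on the array.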

Additional observations from a re-analysis of the deposited data

How the results depend on the processing

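The count of members at least 2-fold higher in liver on every array was 8 under all 9 alternatives tried. The share of all genes meeting that count ranged from 5.64% with exact zeros kept to 13.5% read as natural logs, beside 9.46%. Since the members were chosen on this contrast, nothing is read from the steady count. Apart from natural logs, member means moved by less than their SD between arrays with 4 exceptions. Cpb1 rose from 3.87 to 4.81 without array 3 and to 4.52 with probes measured on at least 2 arrays, as its second probe then entered. Pla2g1b moved from 2.38 to 1.90 with exact zeros kept, as 2 more probes entered, and to 2.51 with the median probe. Read as natural logs, all 10 members moved, with Cpb1 at 5.59 and Pla2g1b at 3.43. The count of acinar regulator and secretion genes called higher was 4, and ranged from 1 to 4 when each array was left out. The other 12 acinar products were called higher in each alternative but 1, exact zeros kept, where 11 were. Called genes over the whole table ranged from 2391 with exact zeros kept to 4184 without array 1, beside 3535. Of the 47 other named genes with a ratio on every array, none changed sign under any alternative tried. With exact zeros kept 10 lost their call, 6 each did without array 2 and without array 3, and 0 without array 1. The values used here are ratios without spot intensities, so no filter on dim spots could be made. No paired analysis was possible because the arrays form 1 group.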
